A study of Mus musculus with 8 samples.

Results

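The thrombospondin genes were examined in the aorta of newborn mice with and without fibulin-4, a secreted matrix protein needed to build elastic fibres. The family comprises Thbs1, Thbs2, Thbs3, Thbs4 and Comp (cartilage oligomeric matrix protein), and its 5 genes were taken as the rows of the deposited array table annotated with 1 of these symbols. All 5 were found, with 1 probe set each, among 22180 genes with a single symbol and 41345 probe sets in all. Segments of thoracic aorta from C57BL/6 pups on postnatal day 0 were pooled by genotype and segment, 8 to a pool, and the RNA of each pool was hybridised to 1 Affymetrix array. The 4 groups were wild-type ascending, wild-type descending, fibulin-4 knockout ascending and fibulin-4 knockout descending aorta, with 2 arrays each. The ascending segment began at the aortic valve and ended at the ductus arteriosus, and the descending one lay between vena cava and diaphragm. The labels name no Cre, transgene or treatment in any group. Each array averages several pups, so differences between single animals were not measured. Levels of the deleted gene were not analysed here, and the genotypes are those of the labels.

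Thrombospondins are secreted, calcium-binding glycoproteins that sit between matrix fibres and cell surfaces and change how cells attach to and sense their matrix. Thrombospondin 1 and thrombospondin 2, encoded by Thbs1 and Thbs2, form trimers and carry the type 1 repeats that bind the receptor CD36. Thrombospondin 3, thrombospondin 4 and COMP form pentamers and lack those repeats. Thrombospondin 1 can activate latent TGF-beta, is stored in platelets, and is made by smooth muscle and endothelial cells under injury or stretch.

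As the sequence in front of the members that the promoter table holds, 250 bases before the annotated start are given for Thbs2, Thbs3 and Thbs4 from the RefSeq promoters of build GRCm38.p6. These 3 of the 5 members matched that table. The Thbs2 sequence is chr17:14694263-14694512 on the minus strand, that of Thbs3 is chr3:89214930-89215179 on the plus strand and that of Thbs4 is chr13:92794819-92795068 on the minus strand. Each is written 5′ to 3′ along its gene, and capitals mark matches to the motifs named after the sequences.
Thbs2: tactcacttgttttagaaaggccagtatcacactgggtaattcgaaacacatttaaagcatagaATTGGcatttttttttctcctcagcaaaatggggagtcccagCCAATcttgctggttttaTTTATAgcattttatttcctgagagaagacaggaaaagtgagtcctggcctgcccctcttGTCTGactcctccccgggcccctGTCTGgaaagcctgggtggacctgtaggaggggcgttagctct
Thbs3: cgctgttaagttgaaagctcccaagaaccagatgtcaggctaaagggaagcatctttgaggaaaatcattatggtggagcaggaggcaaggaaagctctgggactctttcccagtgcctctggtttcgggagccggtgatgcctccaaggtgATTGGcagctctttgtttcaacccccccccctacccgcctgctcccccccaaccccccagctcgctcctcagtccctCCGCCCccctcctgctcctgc
Thbs4: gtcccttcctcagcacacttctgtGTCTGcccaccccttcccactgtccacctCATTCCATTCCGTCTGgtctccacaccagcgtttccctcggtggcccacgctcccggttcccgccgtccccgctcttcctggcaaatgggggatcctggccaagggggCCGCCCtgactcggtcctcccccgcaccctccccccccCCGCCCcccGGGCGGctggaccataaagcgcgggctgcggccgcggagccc

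The motifs were searched on both strands. They were TATAAA (the TATA box), CCAAT (bound by NF-Y), GGGCGG (bound by Sp factors), TGANTCA (AP-1), GGAATG (TEAD factors), CAGAC (Smad proteins), CACGTG (E-box factors) and the CArG box of serum response factor. The Thbs2 window held 1 TATAAA match on the minus strand, 126 to 121 bases before the start, 2 CCAAT matches and 2 CAGAC matches. In the Thbs3 window there were 1 CCAAT and 1 GGGCGG match. The Thbs4 window, with 70.8% G and C against 46.8% for Thbs2 and 58.8% for Thbs3, held 3 GGGCGG, 2 GGAATG and 2 CAGAC matches, and the 2 GGAATG matches share 1 base. Of 32841 promoter windows of the same length, 12.4% held TATAAA, 33.9% CCAAT, 32.7% GGGCGG, 12.6% GGAATG and 42.2% CAGAC. No match to TGANTCA (6.75% of all windows), CACGTG (6.02%) or the CArG box (1.47%) was found in these 3 windows. These matches describe letters and were not tested as binding sites.

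The deposited values are log2 RMA values, 1 per probe set and array, where 1 unit is a doubling. Array medians lay between 4.68 and 4.89. Both wild-type replicate 2 arrays stood apart, with an interquartile range of 1.74 and 1.80 over named genes against 2.14 to 2.28 on the other 6. Results are therefore also given without them. That fit holds 1 array in each wild-type group, so its residual spread comes from the knockout arrays alone. Wild-type variation is not estimated in it. Genes were compared with limma in 1 fit over all 8 arrays, and a gene was called where its adjusted p (Benjamini-Hochberg, over all 22180 genes) was under 0.05. Log2 changes had a median standard error of 0.30 in single segments and of 0.21 in the average of both. For the members discussed at length, the median change of the 1000 genes nearest in mean level is given as a further reference. Smooth muscle markers, which define the aortic media, averaged 8.79 to 9.02 on the wild-type and 9.11 to 9.32 on the knockout arrays, with no overlap. The arrays limit the precision by their number, and fewer cells of a type or less RNA per cell cannot be told apart in such bulk samples.

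The first question was how the knockout changed each thrombospondin gene. Thbs1 rose in the knockout, by 5.82-fold when both segments were averaged. Thbs2, the closest relative of Thbs1, was higher by 1.85-fold in the same average, with every knockout array above the wild-type arrays of its segment, but did not pass the test across all genes. Thbs4 and Comp were higher by 1.54-fold and 1.36-fold with overlapping arrays in the ascending aorta, and Thbs3 differed by a log2 change of -0.21. One of the 5 genes was thus called, against 0.0721% of all genes tested in that comparison.

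The log2 values of Thbs1 were 6.74 and 7.10 in wild-type ascending, 9.50 and 10.05 in knockout ascending, 7.08 and 6.15 in wild-type descending and 8.61 and 9.06 in knockout descending aorta. Every knockout array lay above every wild-type array, of either segment. The group means were 6.92 ± 0.26, 9.78 ± 0.39, 6.61 ± 0.66 and 8.84 ± 0.32 in the same order (SD, n = 2). Averaged over segments, the log2 change was 2.54 (SE 0.26, 95% interval 1.96 to 3.12) with a limma adjusted p of 0.0144. Among all 22180 genes this change ranked 2nd when ordered from the largest increase down, and 4th by p. Genes of like level had a median change of 0.29. The mean of the smooth muscle markers, whose cells make thrombospondin 1, was also higher on every knockout than on every wild-type array. Of these markers 8 of 10 lay above 0, with a median change of 0.27 where the reference of like level was 0.23. These were 0.29 and 0.11 without both wild-type replicate 2 arrays. The part of smooth muscle cells in the Thbs1 and Thbs2 values was not tested. Without both wild-type replicate 2 arrays, which leaves 1 array in each wild-type group, the Thbs1 change was 2.40. The call ended without wild-type descending replicate 2 (2.31, adjusted p 0.0571), without knockout ascending replicate 1 (2.68, 0.107) or replicate 2 (2.40, 0.140) and without knockout descending replicate 1 (2.65, 0.0979) or replicate 2 (2.43, 0.141). It also ended when every row of the table was tested (adjusted p 0.265).

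**Figure D1:**
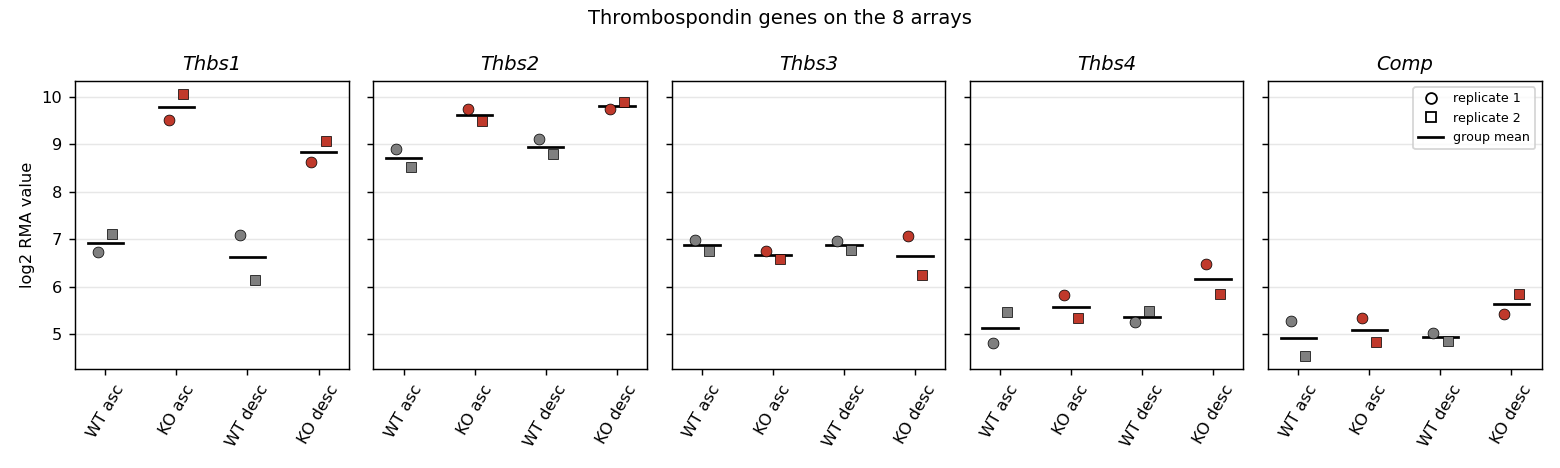
Each panel shows 1 thrombospondin gene, with the log2 RMA value on the vertical axis and the groups on the horizontal axis (WT, wild-type; KO, knockout; asc, ascending; desc, descending); circles are replicate 1, squares replicate 2 and bars the group means. Thbs1 lies between 6.15 and 7.10 in wild-type and between 8.61 and 10.05 in knockout aorta; levels of different genes come from different probes and are not comparable.

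Within the ascending aorta the log2 change of Thbs1 was 2.86 (SE 0.36, 95% interval 2.04 to 3.67), a 7.25-fold difference, with a limma adjusted p of 0.103. Of all 22180 genes 0% were called in that comparison, while 1975 had an unadjusted p under 0.05, and by its unadjusted p of 1.84e-05 Thbs1 ranked 3rd. With limma's trend and robust options the adjusted p was 0.0462. Within the descending aorta the change was 2.22 (SE 0.36, 95% interval 1.41 to 3.04), or 4.67-fold, with an adjusted p of 0.245, where 0.00451% of genes were called. The descending change was 1.76 without wild-type descending replicate 2, the lower of the wild-type arrays. Whether the Thbs1 change differed between segments was tested directly: the ascending minus descending change was 0.63 (SE 0.51, 95% interval -0.52 to 1.79, unadjusted p 0.247), and 0% of genes were called in this test (733 had an unadjusted p under 0.05). It was 1.10 without wild-type descending replicate 2 (SE 0.48, unadjusted p 0.0499) and 1.28 without both wild-type replicate 2 arrays (SE 0.47, unadjusted p 0.0291, limma adjusted p 0.406).

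Thbs2, a matricellular inhibitor of vessel growth in adult tissue, had log2 values of 8.89 and 8.52 in wild-type ascending, 9.75 and 9.48 in knockout ascending, 9.10 and 8.79 in wild-type descending and 9.74 and 9.89 in knockout descending aorta. Its lowest knockout value, 9.48, lay above its highest wild-type value, 9.10. The averaged log2 change was 0.89 (SE 0.19, 95% interval 0.47 to 1.31), against a median of 0.26 in genes of like level. Its unadjusted p was 0.000921 and its limma adjusted p 0.161, so Thbs2 was not called. The change was nearly equal in ascending (0.91, SE 0.26) and descending (0.87, SE 0.26) aorta, with a difference of 0.04 (95% interval -0.80 to 0.88). Without both wild-type replicate 2 arrays the averaged change was 0.72. Thbs1 and Thbs2 were the 2 members whose knockout arrays lay above the wild-type arrays in both segments, as they did for 7.81% of all genes.

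Thbs4, known from tendon, muscle and stressed heart, had log2 values of 4.80 and 5.46 in wild-type ascending, 5.82 and 5.33 in knockout ascending, 5.25 and 5.48 in wild-type descending and 6.47 and 5.84 in knockout descending aorta. Both knockout descending arrays lay above both wild-type descending arrays, while the ascending groups overlapped. The mean level of Thbs4 was 5.56, at percentile 63 of all genes. The averaged log2 change was 0.62 (SE 0.24, 95% interval 0.09 to 1.15, unadjusted p 0.0268), with a limma adjusted p of 0.388. It was 0.44 (SE 0.33) in ascending and 0.79 (SE 0.33) in descending aorta, and the difference between segments was -0.35 (SE 0.47). Without both wild-type replicate 2 arrays the averaged change was 0.84. Thbs1, Thbs2 and Thbs4 thus had an unadjusted p under 0.05 and were higher in the knockout, as were 7.57% of all genes.

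Comp, which binds collagens and is abundant in cartilage and tendon, had log2 values of 5.28 and 4.53 in wild-type ascending, 5.34 and 4.82 in knockout ascending, 5.01 and 4.85 in wild-type descending and 5.43 and 5.84 in knockout descending aorta. The descending groups did not overlap and the ascending ones did. The mean level of Comp, 5.14, lay near the middle of all genes (percentile 52.9), and whether it stands above background was not tested. The averaged change was 0.44 (SE 0.23, 95% interval -0.08 to 0.96), with a limma adjusted p of 0.497. It was 0.18 (SE 0.33) in ascending and 0.70 (SE 0.33) in descending aorta. Without both wild-type replicate 2 arrays the averaged change was 0.21. The ascending change turned to -0.20 when wild-type ascending replicate 2 was left out and to -0.08 when knockout ascending replicate 1 was.

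Thbs3, the least studied member, had log2 values of 6.99 and 6.75 in wild-type ascending, 6.74 and 6.58 in knockout ascending, 6.96 and 6.77 in wild-type descending and 7.06 and 6.25 in knockout descending aorta. The ascending knockout arrays lay just below the wild-type ones, by 0.01 at the nearest, and the descending groups overlapped. The averaged change was -0.21 (SE 0.22, 95% interval -0.69 to 0.27) with a limma adjusted p of 0.731. Genes of like level had a median change of 0.22, within that interval. Knockout descending replicate 2 was the lowest of all 8 values, and the averaged change was -0.01 without it.

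Across the family, 2 of 5 members had knockout ascending arrays above the wild-type ascending ones (21.5% of all genes did) and 1, Thbs3, had them below (18.3%). In the descending aorta 4 of 5 members had both knockout arrays above both wild-type arrays, against 21.6% of all genes. Such shares were not taken among genes of like level. The median descending change of those genes was 0.28 for Thbs1, 0.24 for Thbs2, 0.09 for Thbs4 and 0.005 for Comp. For all genes it was 0.03. The change of Thbs1 exceeded that of the other members, compared within each array, by 1.66 for Thbs2, 1.92 for Thbs4, 2.10 for Comp and 2.75 for Thbs3. Each of these 4 differences had an exact two-sided permutation p of 0.0556, permuting arrays within segments, which is the smallest that 36 arrangements allow. Thbs2 exceeded Thbs3 by 1.10 with the same p, and Thbs3 minus Thbs4 was -0.83, also with that p, while the p was 0.444 for Thbs2 against Thbs4 (0.27) and 0.111 for Thbs2 against Comp (0.45). After adjustment over all 10 pairs the smallest p was 0.0926.

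**Figure D2:**
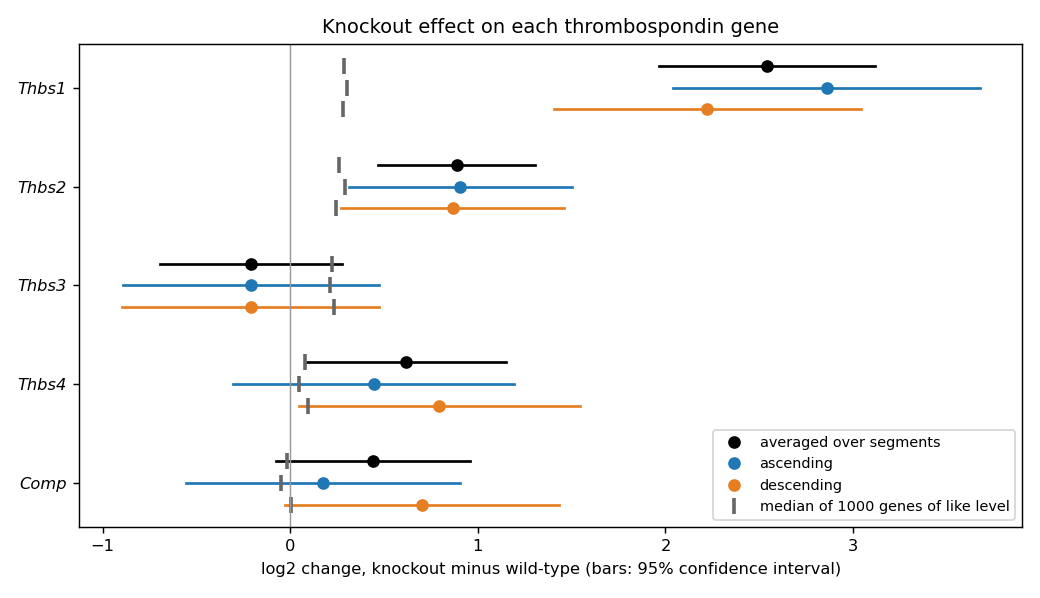
The horizontal axis gives the log2 change, knockout minus wild-type, of each thrombospondin gene averaged over segments (black), in ascending (blue) and in descending aorta (orange); points are limma estimates from 2 arrays a group, lines 95% intervals and grey ticks the median change of 1000 genes of like level. The Thbs1 intervals begin at 1.96, 2.04 and 1.41, those of Thbs2 lie above 0, and all 3 intervals of Thbs3 and of Comp include 0.

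The second question was whether the members differ between ascending and descending aorta. In wild-type aorta none of the 5 was called, against 0.00902% of all genes, and the arrays of both segments overlapped for every member (15.9% of genes had both ascending arrays above the descending ones and 14.1% had them below). The ascending minus descending difference ran from -0.24 (SE 0.26) for Thbs2 to 0.31 (SE 0.36) for Thbs1, with Thbs4 at -0.23, Comp at -0.02 and Thbs3 at 0.00. Leaving out wild-type descending replicate 2 turned the Thbs1 difference to -0.16, and leaving out both wild-type replicate 2 arrays to -0.34.

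In knockout aorta the ascending arrays lay above the descending ones for Thbs1, by 0.94 (SE 0.36, 95% interval 0.12 to 1.76, unadjusted p 0.0283), as they did for 18.3% of all genes. They lay below for Thbs4, by a log2 difference of -0.58 (SE 0.33), and for Comp, by -0.55 (SE 0.33), as for 20.8% of genes. Thbs2 stood at -0.20 (SE 0.26) and Thbs3 at 0.01 (SE 0.31), with overlapping arrays. No member was called in the knockout segment difference, where 0% of all genes were and 895 had an unadjusted p under 0.05. Each member's adjusted p was 1. The highest Thbs1 values of the study, 9.50 and 10.05, were thus those of the ascending knockout, and the highest Thbs4 and Comp values those of the descending knockout. The difference between the segments' knockout effects was -0.35 (SE 0.47) for Thbs4 and -0.53 (SE 0.46) for Comp, neither called.

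How the members varied together was described over the 8 arrays, which share genotype and segment as sources of variation. The Pearson correlation was 0.826 between Thbs1 and Thbs2, 0.781 between Thbs2 and Comp and 0.638 between Thbs2 and Thbs4. Thbs3 correlated negatively with the other 4, from -0.471 with Thbs1 to -0.077 with Thbs4. Among 1974 named genes with an SD of at least 0.5, the 3 most like Thbs1 were Myh9 (r 0.981), the heavy chain of non-muscle myosin, Epha2 (0.970), an ephrin receptor, and Plod2 (0.967), a lysyl hydroxylase of collagen. The 3 most like Thbs2 were Col11a1 (0.975), a fibrillar collagen chain, Lcn2 (0.974), the siderophore-binding lipocalin, and Ap2a2 (0.965), a clathrin adaptor subunit. Of these 6 genes, Col11a1 was called by limma in the averaged knockout effect (log2 change 1.85, SE 0.18, adjusted p 0.0144), as were 0.0721% of all genes. The 6 were chosen on the same arrays for following Thbs1 or Thbs2, so their knockout changes are not independent of that choice. Thbs4 was most like Ppbp (0.944), a platelet chemokine, Nid1 (0.915), a basement membrane linker, and Prelp (0.903), a small leucine-rich matrix protein. For Comp these were Gng8 (0.948), Kif23 (0.937) and Cdipt (0.928), and for Thbs3 Tmem69 (0.941), Tgoln1 (0.877) and Sat2 (0.853).

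**Figure D3:**
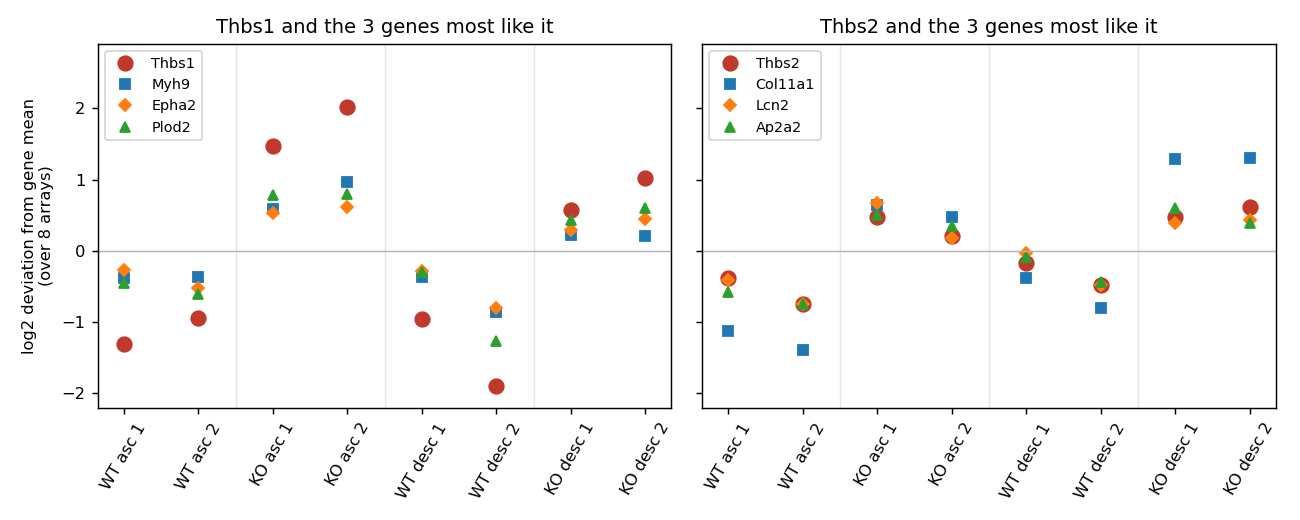
The vertical axis gives the log2 deviation of each gene from its own mean over the 8 arrays on the horizontal axis (group and replicate number), for Thbs1 with Myh9, Epha2 and Plod2 (left) and for Thbs2 with Col11a1, Lcn2 and Ap2a2 (right). All 8 genes lie below 0 on every wild-type array and above 0 on every knockout array. The genes beside Thbs1 and Thbs2 were chosen for following them on these same arrays, so their like split is not separate evidence.

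Position gave a further comparison. The nearest measured protein-coding neighbours of Thbs1 in the RefSeq annotation, Rasgrp1 and Fsip1, had averaged log2 changes of 0.34 (SE 0.19) and -0.35 (SE 0.20) beside the 2.54 of Thbs1. Smoc2, a matricellular calcium-binding protein gene next to Thbs2, stood at 0.95 (SE 0.23, adjusted p 0.216), and Wdr27 on its other side at -0.07. Mtx1 and Muc1, beside Thbs3, stood at 0.38 and -0.18. The neighbours of Thbs4 were Serinc5 (0.20) and Mtx3 (0.02), and those of Comp were Upf1 (0.45) and Crtc1 (0.38). None of these 10 neighbours was called.

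Genes around the thrombospondins were taken from lists of receptors, partners, proteases and regulators. By limma none of their genes was called in the averaged knockout effect. An unadjusted p under 0.05 was reached, in the order described here, by 6 of 15 receptor genes (5 higher, 1 lower), 6 of 13 and 6 of 16 TGF-beta genes, 8 of 18 regulators, 7 of 19 matrix partners (6 higher, 1 lower), 2 of 7 proteases, 7 of 15 ATF6 genes and 4 of 34 type 1 repeat genes, all higher in the knockout unless stated. Of all genes 11.4% reached it, 7.57% being higher and the rest lower. Above 0 lay 49.8% of all genes, with a median of -0.00. The reference of like level, taken for each listed gene as for the members, had a median of 0.25 for the receptor list, 0.28 for TGF-beta ligands and activators, 0.25 for TGF-beta targets, 0.22 for the regulators and the ATF6 branch, 0.21 for matrix partners and proteases and 0.13 for type 1 repeat genes. Among receptors and partners on cells 14 of 15 lay above 0, with a median of 0.40; Lrp1, which clears thrombospondin 1, stood at 0.84 (SE 0.18), Itgav at 0.89 (SE 0.19), Calr at 0.72 and Itga4 at 0.68. Cd36, the receptor of the type 1 repeats, chosen after its values were seen as the 1 below 0, stood at -0.85 (SE 0.24, adjusted p 0.287). Its log2 values were 9.14 and 8.25 in wild-type descending aorta and 6.44 to 7.29 on the other 6 arrays. Markers of adipocytes, which also make Cd36, were below 0 in 10 of 10 genes with a median of -0.90; their part in this value was not tested. Cd47, the other main thrombospondin 1 receptor and also chosen after its values were seen, stood at 0.13 (SE 0.28).

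In the TGF-beta pathway, which thrombospondin 1 can activate, 12 of 13 ligand and activator genes lay above 0 with a median of 0.48. Ltbp2, a latent TGF-beta binding family protein, stood at 1.06 (SE 0.18, limma adjusted p 0.0924), the ligand Tgfb3 at 1.00 (SE 0.17, 0.0989), Lrrc32, which holds latent TGF-beta on cells, at 0.95 and the integrin subunit Itgb5 at 0.60. TGF-beta target genes had 13 of 16 above 0 and a median of 0.41, with Ccn2 at 1.36, Timp1 at 1.08, Tnc at 0.64 and Col4a1 at 0.55. Without both wild-type replicate 2 arrays the median was 0.34 for ligands and activators, where the reference of like level was 0.13. It was 0.21 for targets (12 of 16 above 0, reference 0.098) and 0.21 for receptors (12 of 15, reference 0.11).

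Candidate regulators of Thbs1 lay above 0 in 16 of 18 genes with a median of 0.40. Srf stood at 0.68 (SE 0.17), its cofactor Mrtfa at 0.73, Tead1 at 0.61 and Egr1 at 1.12 (SE 0.37), with overlapping descending arrays. Of the matrix partners 11 of 19 lay above 0, with a median of 0.06; Acan (aggrecan) stood at 0.96, Fn1 (fibronectin) at 0.90, and the gelatinases Mmp2 and Mmp9 at 0.63 and 0.59. ADAMTS proteases listed as candidates for cleaving thrombospondins or COMP lay above 0 in 7 of 7, with a median of 0.37. Adamts12, a COMP protease, stood at 0.78, and Adamts1, Adamts4 and Adamts15 at 0.73, 0.37 and 0.37. In the ascending aorta 4 of these 7 lay above 0, with a median of 0.068 and Adamts15 at -0.12, and in the descending aorta 7 of 7, with a median of 0.28. The ATF6 branch of the unfolded protein response, which thrombospondin 4 engages in the mouse heart, lay above 0 in 15 of 15 genes with a median of 0.40, among them Syvn1 (0.68), Dnajb11 (0.77) and Canx (0.65). Other genes with thrombospondin type 1 repeats had a median of 0.03 and 18 of 34 above 0. That list leaves out Ccn2 and the ADAMTS proteases, which were counted in the lists above. Within it Ccn1 stood at 1.63 (SE 0.32), Unc5b at 0.83, Ccn5 at 0.65 and Adamtsl2 at 0.48. Without both wild-type replicate 2 arrays, matrix partners moved to 14 of 19 above 0 with a median of 0.15, and type 1 repeat genes to 14 of 34 with a median of -0.02. The regulators moved to 14 of 18 (median 0.28), the proteases to 5 of 7 (0.38) and the ATF6 branch to 13 of 15 (0.39).

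**Figure D4:**
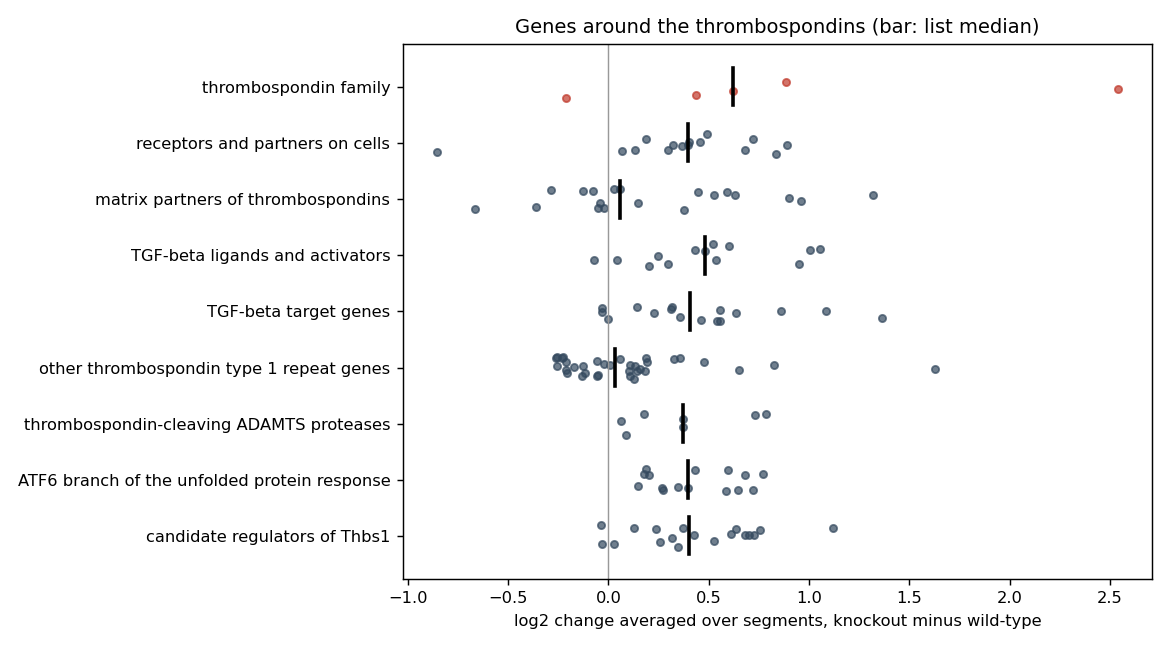
Each point is 1 gene, placed by its log2 change averaged over segments (knockout minus wild-type, horizontal axis), for the 5 thrombospondins (red) and the lists around them (dark); black bars are list medians. Thbs1, at 2.54, lies to the right of every listed gene, the nearest being Ccn1 at 1.63.

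Markers of other cells that make thrombospondins were read beside these values. The mean log2 value of 9 platelet and megakaryocyte markers was 5.62 to 6.01 on the wild-type arrays and 5.78 to 6.10 on the knockout arrays, ranges that overlap. Ppbp, picked out by its likeness to Thbs4 on these same arrays, ran from 5.40 to 6.48 in wild-type and from 6.63 to 7.48 in knockout aorta. Pf4 ran from 9.06 to 10.43 and from 9.75 to 10.51. In the averaged effect 6 of the 9 platelet markers lay above 0, with a median of 0.10. The 3 below 0 were Clec1b (-0.49), Gp9 (-0.42) and Gp6 (-0.16). Cartilage markers, 13 in number, averaged between 5.08 and 5.34 on all 8 arrays. Single markers ran from Cnmd at a mean of 3.68 to Acan at 9.27, with Matn1 at 3.86 and Col2a1 at 5.49. In the averaged effect 7 of 13 lay above 0, with Acan at 0.96 and Matn1 at -0.67. Tendon markers, 7 in number without Thbs4, averaged 5.47 to 5.89 in wild-type and 6.01 to 6.29 in knockout aorta. Of these, Col12a1 rose by 1.59 in the averaged effect (limma adjusted p 0.0202), Tnmd and Fmod stood at 1.12 and 1.01, and Scx and Kera at -0.18 and -0.41; in the descending aorta 4 of 7 lay below 0, with a median of -0.09. Cardiomyocyte markers, 10 in number, averaged 7.84 to 8.05 in knockout descending aorta, where Thbs4 and Comp were highest, and 6.60 to 7.34 on the other 6 arrays. Endothelial markers, also 10, averaged 6.30 to 6.49 in knockout ascending aorta, where Thbs1 was highest, against 6.91 to 7.06 in wild-type ascending and 6.93 to 7.51 in descending aorta of both genotypes. Myeloid markers, 12 in number, averaged 6.49 to 7.16 in wild-type and 7.37 to 7.85 in knockout aorta, and skeletal muscle markers reached 6.87 and 7.83 on the wild-type ascending arrays against 5.32 to 6.25 on the other 6. The part of tendon, cardiac, endothelial, myeloid and skeletal muscle cells in the thrombospondin values was not tested.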

How the data were processed

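RNA of 8 pools was amplified from 5 ng, biotin-labelled and hybridised, per the labels' protocols. The authors deposited 1 log2 value per probe set and array, which the submitters' processing notes credit to Affymetrix Expression Console and RMA; their versions and the build are not given here. Of 41345 probe sets, the platform annotation gave 1 symbol to 23521, several to 1814 and none to 16010. The highest-mean row was kept per gene. One limma model (version 3.58.1, R 4.3.3) held a mean per group (4 residual and 5.52 prior degrees of freedom) and adjusted over all 22180 genes. Likeness used Pearson correlation. The procedure was tested on simulated data. Members and lists were chosen with earlier results of these data known. The text names all members, up to 4 genes of the smallest p in each pathway list, and the 3 genes most like each member; predicted, microRNA, small nucleolar and receptor-family genes of smell were left out of likeness. The alternatives were 2 scalings (array medians, quantiles), omission of the dimmest 25% of genes, mean of probe sets, every row, replicate block and only the groups compared. Further ones were array weights, limma's trend and robust options, a threshold of 0.1, each array left out, and both wild-type replicate 2 arrays left out. For the lists and for every comparison but the averaged knockout effect, leaving out both was added after seeing the data. Replicate numbers were not taken to pair pools. The labels call the arrays biological replicates. Plots used Python 3.11.15 and matplotlib 3.10.9.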

Additional observations from a re-analysis of the deposited data

How the results depend on the processing

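Thbs1 alone was called in the averaged knockout effect. That count of 1 was kept under each array centring and quantile scaling, without dim genes, with the mean of probe sets, with trend and robust options, array weights and an adjusted p under 0.1, and without both wild-type replicate 2 arrays; it was 0 with every row tested, and between 0 and 1 when 1 array was left out. In the ascending aorta the count was 1 with trend and robust options (Thbs1) and 0 under the other alternatives. In the remaining 4 comparisons it was 0 throughout. A fit of only the groups compared was not run for the averaged effect and the segment difference of the effect, which use all groups. With the replicate block the counts were the same, 1 in the averaged effect and 0 elsewhere (Thbs1 2.54, limma adjusted p 0.0235). Deviations of same-numbered arrays correlated at 0.292 between wild-type ascending and wild-type descending aorta. Between the other pairs of groups they correlated from -0.0778 to 0.116. The labels do not say that the numbers pair pools, so they were not read as pairing. Dependence between same-numbered wild-type arrays was not modelled in the main fit. The number of all genes called in the averaged effect was 16, and 0 to 50 under the alternatives (35 without the dimmest 25% of genes, 1 with every row tested, 25 without both wild-type replicate 2 arrays); it was 0 to 14 ascending, 0 to 7 descending, 0 to 23 in the wild-type segment difference and 0 to 18 in the knockout one.
None of the differences that changed sign was called, and the cause was not tested. The Comp ascending effect was -0.20 without both wild-type replicate 2 arrays and -0.20 to 0.55 leaving out 1 array. The Comp wild-type segment difference was 0.00093 after median centring, 0.27 without both wild-type replicate 2 arrays and -0.40 to 0.35 leaving out 1 array, and that of Thbs1 was -0.34 and -0.16 to 0.77. The Thbs2 segment difference of the effect was -0.0025 after centring, -0.11 after quantile scaling and -0.15 to 0.23 leaving out 1 array. For Thbs3 the same quantity was -0.041, -0.022, -0.018 without both wild-type replicate 2 arrays and -0.40 to 0.40, its knockout segment difference was -0.012, -0.0033 and -0.40 to 0.41, its wild-type one -0.11 to 0.12 and its descending effect -0.61 to 0.19. The Thbs4 wild-type segment difference was -0.56 to 0.097 leaving out 1 array. With 2 arrays a group, even the ascending Thbs1 difference of 2.86 (SE 0.36) was not called (adjusted p 0.103).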
